A study of Homo sapiens with 6 samples.

Results

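The S100 genes described here are 10 members of the family of small calcium-binding proteins: S100A2, S100A3, S100A4, S100A6, S100A10, S100A11, S100A13, S100A14, S100A16 and S100P. They were taken by symbol from the authors' deposited table of 1 comparison, which lists 7150 genes, and all 10 were found in it. RNA was sequenced from MDA-MB-231, a human triple-negative breast cancer cell line labelled as wild type, in 3 libraries of cells given 0.5 µM shikonin for 24 h and 3 libraries of cells labelled as having no treatment. Shikonin is a naphthoquinone pigment from the root of Lithospermum erythrorhizon, and its dose is read as micromolar because the labels write the unit with a lower-case m. All libraries come from this 1 line, grown in DMEM with serum, and the sources used here name no vehicle for the control cells. The labels do not say whether the 3 libraries of a group are separate cultures; the p-values therefore cover the spread between libraries, which could be technical.

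S100 proteins are short acidic proteins that form dimers and carry a pair of EF-hands, the helix-loop-helix motif that holds a calcium ion. Calcium opens a hydrophobic face on most of them, which then binds partners such as annexins, myosin or p53, while S100A10 is held in the open form without calcium. Several members also leave the cell and bind surface receptors such as RAGE, encoded by AGER. Most of the human genes lie together on the long arm of chromosome 1, and in breast cancer S100A4 and S100P are known for links to invasion and metastasis.

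All 10 S100 genes were higher in shikonin-treated cells than in control cells, with log2 fold changes from 1.09 to 4.71 and a median of 2.26 by the values in the authors' deposited table. Each passed the thresholds of that table, an adjusted p below 0.05 by the authors' DESeq2 test and a fold above 1.5. About 14253 genes were tested, as recovered from the adjusted p-values, and 50.2% of them stand in the authors' deposited table, 25.5% as higher in shikonin and 24.7% as lower. The members were named with the table known and each of them is listed, so their count of 10 is a property of the choice and is not read against that share. The median over all listed genes was 0.60, and the median over the 3630 listed higher genes was 1.22, going by the authors' deposited table. The human family has another 11 genes in the list used here, and the authors' deposited table holds 1 of them, S100A5, also higher. The remaining 10 (S100A1, S100A7, S100A7A, S100A7L2, S100A8, S100A9, S100A12, S100B, S100G and S100Z) are not listed, so they either did not pass the thresholds or were not tested.

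With 0 columns of values per library in the table, the depth of a library and the level of a gene in it cannot be shown. In their place, the mean of each group was solved from the authors' mean normalized count over all libraries and their fold change, with equal weight for the 3 libraries of each group. Such a value is called an implied mean below. Intervals of a fold are 95% normal intervals from the standard error listed in the authors' deposited table.

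**Figure D1:**
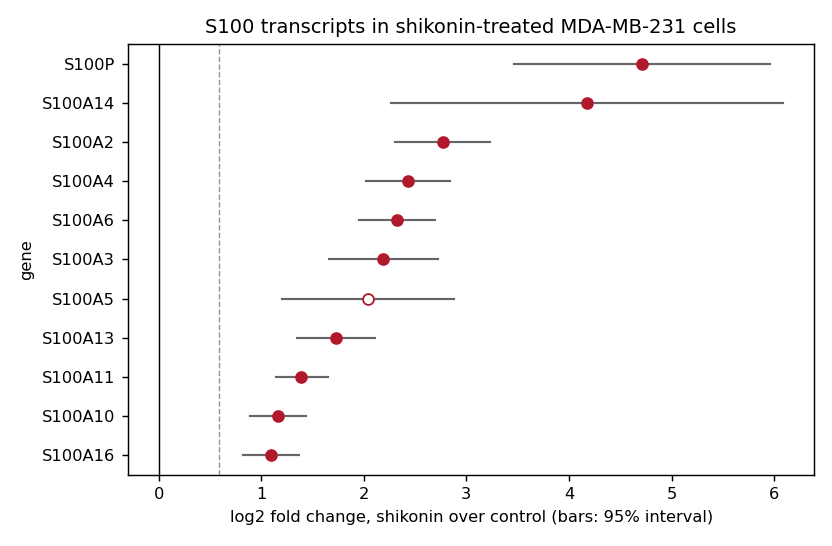
Log2 fold change of each S100 gene, shikonin over control, from the authors' deposited table, with 95% intervals from the listed standard error. Filled points are the 10 genes described and the open point is S100A5. The solid line marks no difference and the dashed line the authors' threshold of 1.5-fold. Every interval lies to the right of the dashed line, and those of S100A14 and S100P are the widest.

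S100A6, or calcyclin, which is abundant in proliferating cells and binds the calcyclin-binding protein CACYBP, was the most abundant of the 10. Its implied mean was 66154 normalized counts in shikonin and 13258 in control, a 4.99-fold difference (3.86 to 6.45; adjusted p = 6.38e-33 by DESeq2) by the values in the authors' deposited table. By mean normalized count S100A6 ranked 25 of the 7150 genes going by the authors' deposited table. Of the 158 listed genes whose mean reached 10000 normalized counts, 141 were higher, with a median log2 fold change of 1.27 over all 158 from the values in the authors' deposited table. The log2 fold change of S100A6 was 2.32 ± 0.19 (standard error), and 4 of those 158 genes, S100A6 included, stood at or above it by the values in the authors' deposited table.

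S100A4, known as metastasin, binds the tail of non-muscle myosin IIA and disassembles its filaments. Its implied mean was 7397 normalized counts in shikonin and 1374 in control, a 5.38-fold difference (4.05 to 7.16; adjusted p = 3.13e-29 by DESeq2) going by the authors' deposited table. S100A2, a nuclear member that binds p53 and is found mostly in epithelia, had implied means of 792 in shikonin and 116 in control. It was 6.80-fold higher (4.94 to 9.37; adjusted p = 3.59e-30 by DESeq2) from the values in the authors' deposited table. S100A3, a cysteine-rich protein of the hair cuticle and a substrate of the peptidylarginine deiminase PADI3, had implied means of 869 in shikonin and 190 in control. Its difference was 4.57-fold (3.16 to 6.60; adjusted p = 5.75e-15 by DESeq2) by the values in the authors' deposited table. The intervals of S100A2, S100A3, S100A4 and S100A6 overlap each other, so these data do not order the 4 genes by fold.

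Promoters of 4 members are printed here because these genes, S100P, S100A14, S100A2 and S100A4, had the 4 largest folds of the 10. Each is the RefSeq sequence (GRCh38.p14) on the gene's own strand, 5′ to 3′, from 250 bases before to 50 bases after the annotated start. Capitals mark every match to 6 motifs searched on both strands: an antioxidant response element (TGACNNNGC), an AP-1 site (TGANTCA), a heat shock element in either orientation (GAANNTTC or TTCNNGAA), a C/EBP-ATF element (TGATGNAA) and a TATA box (TATAAA). The first, the upstream one of 2 for S100A2, is at chr1:153565795-153566094 (minus strand). The second, for S100A4, is at chr1:153545757-153546056 (minus strand). The third, for S100A14, is at chr1:153616276-153616575 (minus strand), and the fourth, for S100P, at chr4:6693628-6693927 (plus strand).
S100A2: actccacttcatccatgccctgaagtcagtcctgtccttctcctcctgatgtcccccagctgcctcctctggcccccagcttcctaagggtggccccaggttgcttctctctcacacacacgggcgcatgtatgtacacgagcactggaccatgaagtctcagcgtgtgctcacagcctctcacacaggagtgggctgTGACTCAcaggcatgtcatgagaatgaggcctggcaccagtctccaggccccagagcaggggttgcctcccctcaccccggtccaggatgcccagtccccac
S100A4: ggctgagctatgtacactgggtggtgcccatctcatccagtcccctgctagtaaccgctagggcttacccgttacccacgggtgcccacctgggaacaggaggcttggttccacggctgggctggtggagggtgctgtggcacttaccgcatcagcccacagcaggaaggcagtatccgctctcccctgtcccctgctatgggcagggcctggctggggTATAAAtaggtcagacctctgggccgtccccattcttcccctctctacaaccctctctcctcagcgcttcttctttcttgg
S100A14: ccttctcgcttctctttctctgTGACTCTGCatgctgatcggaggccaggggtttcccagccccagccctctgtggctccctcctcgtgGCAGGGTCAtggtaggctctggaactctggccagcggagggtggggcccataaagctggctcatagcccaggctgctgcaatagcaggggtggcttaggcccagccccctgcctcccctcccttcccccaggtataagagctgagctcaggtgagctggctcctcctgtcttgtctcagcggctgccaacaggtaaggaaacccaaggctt
S100P: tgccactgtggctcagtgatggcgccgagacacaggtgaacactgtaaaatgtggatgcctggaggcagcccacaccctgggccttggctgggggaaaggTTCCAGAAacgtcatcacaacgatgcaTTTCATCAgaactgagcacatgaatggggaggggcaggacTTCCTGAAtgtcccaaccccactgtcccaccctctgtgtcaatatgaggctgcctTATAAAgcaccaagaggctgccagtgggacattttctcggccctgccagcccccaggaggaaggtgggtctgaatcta

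The S100A2 window holds 1 AP-1 match and the S100A4 window 1 TATA box. In S100A14 both capital runs match the antioxidant response element, 1 on each strand, and S100P holds 2 heat shock matches (both TTCNNGAA), 1 C/EBP-ATF match and 1 TATA box. All 10 members matched the RefSeq table, with 14 promoters. The antioxidant response element was found in promoters of 3 members (S100A13, S100A14 and S100A16), against 13.3% of the 35116 promoters in the table. AP-1 was found in 2 (S100A2 and S100A3; 7.71% of all promoters), TTCNNGAA in 3 (S100A11, S100A13 and S100P; 7.74%), and GAANNTTC in 0 (6.77%). The C/EBP-ATF element was found in 1 (S100P; 3.62%) and the TATA box in 3 (S100A4, S100A13 and S100P; 11.5%). Members with several promoters had more than 1 chance of a match, and no motif was shared by more than 3 of the 10. A match describes the letters of the window only.

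S100A10, S100A11 and S100A16, all abundant in control cells, had the smallest folds. S100A10, also called p11, joins annexin A2 in a complex that holds plasminogen at the cell surface. Its implied mean was 13591 normalized counts in shikonin and 6081 in control, a 2.24-fold difference (1.85 to 2.70; adjusted p = 4.25e-16 by DESeq2) going by the authors' deposited table. S100A11, a partner of annexin A1 known from membrane repair and from growth arrest of keratinocytes, had implied means of 20491 in shikonin and 7793 in control. That is a 2.63-fold difference (2.20 to 3.15; adjusted p = 1.10e-24 by DESeq2) from the values in the authors' deposited table. GENCODE 29 holds 2 processed pseudogenes of S100A11 on chromosome 7, so reads of near-identical copies could be split and its value is uncertain to that extent. Neither pseudogene is listed. S100A16, which is expressed in many tissues, had implied means of 14847 in shikonin and 6953 in control. It was 2.14-fold higher (1.76 to 2.59; adjusted p = 1.22e-13 by DESeq2) by the values in the authors' deposited table. The upper bounds of S100A10 (2.70), S100A11 (3.15) and S100A16 (2.59) lie below the lower bounds of S100A2, S100A3, S100A4 and S100A6, of which the lowest is 3.16.

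S100A13, which takes part in the copper-dependent release of FGF1 and interleukin 1 alpha from stressed cells, had a fold between those of both sets. The interval of S100A13 overlaps those of S100A10, S100A11 and S100A16 and also those of S100A3, S100A4 and S100A6. These data therefore do not settle its place between the sets. Its implied mean was 2024 normalized counts in shikonin and 609 in control, a 3.33-fold difference (2.56 to 4.33; adjusted p = 5.69e-18 by DESeq2) going by the authors' deposited table. Its exons share 235 bases with S100A1 on the opposite strand and 536 bases with the transcript AL162258.1 on the same strand. The sources used here do not say whether the libraries kept strand, so reads of S100A13 and S100A1 cannot be told apart there. Exons of S100A6 share 23 bases with an antisense transcript, BX470102.1. Neither AL162258.1 nor BX470102.1 is listed.

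S100P and S100A14 had the largest folds and the lowest levels. S100P, which binds ezrin and IQGAP1 and is a ligand of RAGE, had implied means of 76.5 normalized counts in shikonin and 2.92 in control. Its difference was 26.2-fold (11 to 62.4; adjusted p = 1.34e-12 by DESeq2) from the values in the authors' deposited table. S100A14, a member with weak calcium binding that is found mostly in epithelia, had implied means of 31.9 in shikonin and 1.76 in control, an 18.1-fold difference (4.80 to 68.2; adjusted p = 5.35e-05 by DESeq2) by the values in the authors' deposited table. Both folds rest on few reads in control, with log2 fold changes of 4.71 ± 0.64 for S100P and 4.18 ± 0.98 for S100A14 (standard error) going by the authors' deposited table. S100A5, a member best known from olfactory neurons, was 4.11-fold higher (2.30 to 7.35) with implied means of 80.2 in shikonin and 19.5 in control by the values in the authors' deposited table.

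Divided by the length of the principal transcript, so that levels can be compared between genes, the order in shikonin was S100A6, S100A11, S100A16, S100A4, S100A10, S100A13, S100A3, S100A2, S100P and S100A14. The implied level ran from 98297 normalized counts per kb for S100A6 to 26.2 for S100A14 in shikonin, and from 19700 to 1.45 for the same genes in control. S100A4 stood at 12328 normalized counts per kb in shikonin and 2290 in control, and S100A10 at 11307 in shikonin and 5059 in control. By these values S100A4 was above S100A10 in shikonin and below it in control. No spread over libraries can be given for these levels, so neighbours in the order are not shown to differ. In shikonin these include S100A16 (12955) and S100A4, and also S100A4 and S100A10. Summed over the 10 genes, the implied means were 126272 normalized counts in shikonin and 36379 in control, 3.47-fold. That is 0.956% of the implied total of all listed genes in shikonin and 0.362% in control. S100A6 made up 52.4% of the sum in shikonin and 36.4% in control. Without it the sum was 60118 in shikonin and 23121 in control, 2.60-fold.

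**Figure D2:**
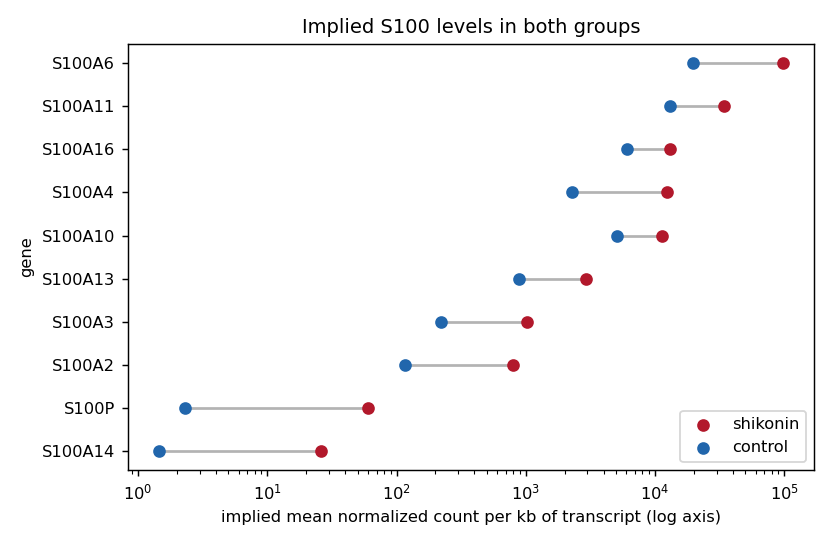
Implied mean normalized count per kb of principal transcript for each of the 10 S100 genes, on a log axis, in shikonin (red) and control (blue). The means were solved from the authors' deposited table and carry no error of their own. S100A6 has the highest level in both groups, S100P and S100A14 the lowest, and the line joining the points is short for S100A10, S100A11 and S100A16.

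Some neighbouring S100 genes had similar folds and others did not. Of the 10 members, 9 lie on chromosome 1, all on the minus strand, between 151982915 and 153631360 (GRCh38, GENCODE 29), and S100P lies on chromosome 4 from 6693069 to 6697170. S100A6 (153534599 to 153536244), S100A5, S100A4 (153543613 to 153550136), S100A3 (153547329 to 153549372) and S100A2 (153561108 to 153567890) follow each other within 33.3 kb. They are the 5 annotated genes lying wholly within that stretch, and all 5 were higher, by 4.11- to 6.80-fold, going by the authors' deposited table. S100A3 lies within the annotated span of S100A4, and their exons share 0 bases. The implied sum of the 5 genes was 75291 normalized counts in shikonin and 14958 in control, 5.03-fold.

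S100A16 (153606886 to 153613145), S100A14 (153614255 to 153616986) and S100A13 (153618787 to 153631360) form a second group, starting 39.0 kb beyond S100A2. In that group the folds were 2.14, 18.1 and 3.33 from the values in the authors' deposited table, so neighbours there were not alike. S100A10 (151982915 to 151994390) and S100A11 (152032506 to 152047907) lie apart at the other end. The 1487 kb between S100A11 and S100A6 hold 53 protein-coding genes, among them S100A7, S100A8, S100A9 and S100A12 and the epidermal genes for filaggrin, trichohyalin and hornerin, and 0 of these genes are listed. A list of 7 S100-fused epidermal genes (FLG, FLG2, HRNR, TCHH, TCHHL1, RPTN and CRNN) had 0 listed. Across the whole span, 64 protein-coding genes are annotated and 10 genes are listed, the 9 members and S100A5, all higher. The 9 members were chosen as listed genes, so that count is partly fixed. In the 500 kb on both sides another 13 genes are listed, 9 higher and 4 lower, with a median log2 fold change of 0.72 by the values in the authors' deposited table. Over all tested genes 50.2% are listed, and how many genes here were tested is not known. Principal transcripts of the 4 lower genes measured 5235 to 7478 nt, and those of the higher ones with a known length 359 to 2723 nt. The part of length or place was not tested.

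**Figure D3:**
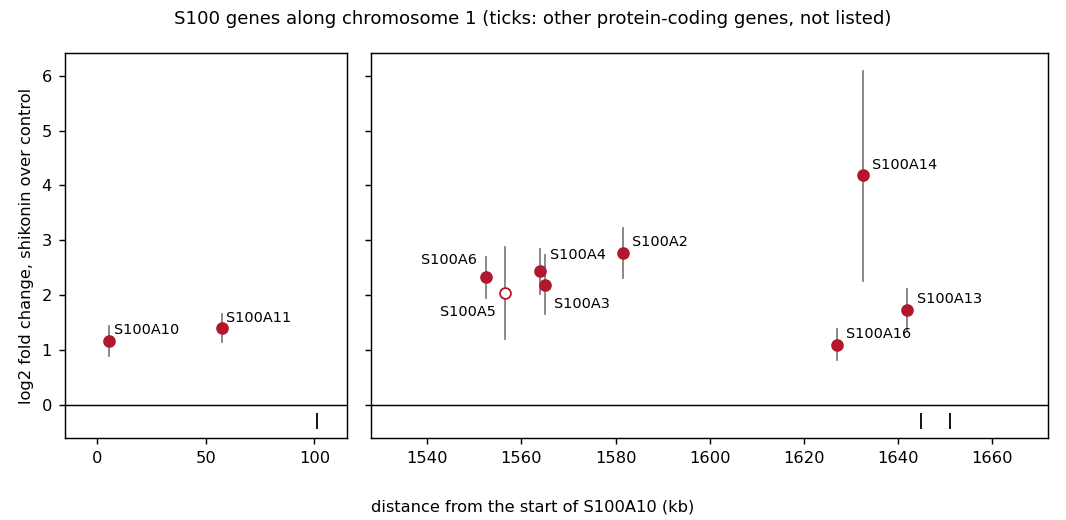
Log2 fold change of the S100 genes on chromosome 1, shikonin over control, from the authors' deposited table, against distance in kb from the start of S100A10. Vertical bars are 95% intervals, the open point is S100A5, ticks under the zero line are protein-coding genes in the same windows that are not listed, and the stretch between the panels is not drawn. S100A6, S100A5, S100A4, S100A3 and S100A2 sit close together at 4.11- to 6.80-fold, above S100A10, S100A11 and S100A16.

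S100 messages are short, and short transcripts were mostly higher in these data. The principal transcripts of the 10 members ran from 594 nt (S100A11) to 1279 nt (S100P), in the 2 deciles of shortest transcripts among 6920 listed protein-coding genes. Of the genes in the first decile 97.7%, and of those in the second 96.7%, were higher going by the authors' deposited table, with median log2 fold changes of 1.48 and 1.14. A rise alone therefore does not set a member apart from listed genes of like length. The place of each member within its decile differed. S100A11 stood at percentile 42.5 of the log2 fold change in its decile, S100A16 at 46.8 and S100A10 at 51.6, near the middle. S100A13 stood at 66.3. S100A3 stood at 84.2, S100A6 at 85.7, S100A4 at 87.4 and S100A2 at 90.0. S100A14 and S100P, with few reads in control, stood at 97.5 and 98.7. Large folds were usual at such levels: the 420 listed higher genes with an implied control mean below 10 had a median log2 fold change of 3.66. Among those 420 genes S100A14 stood at percentile 60.0 and S100P at 68.3. In all, 8 of the 10 were above the median of their decile. These percentiles describe listed genes only, since unlisted genes have no value here, and the part of transcript length in the rise was not tested.

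**Figure D4:**
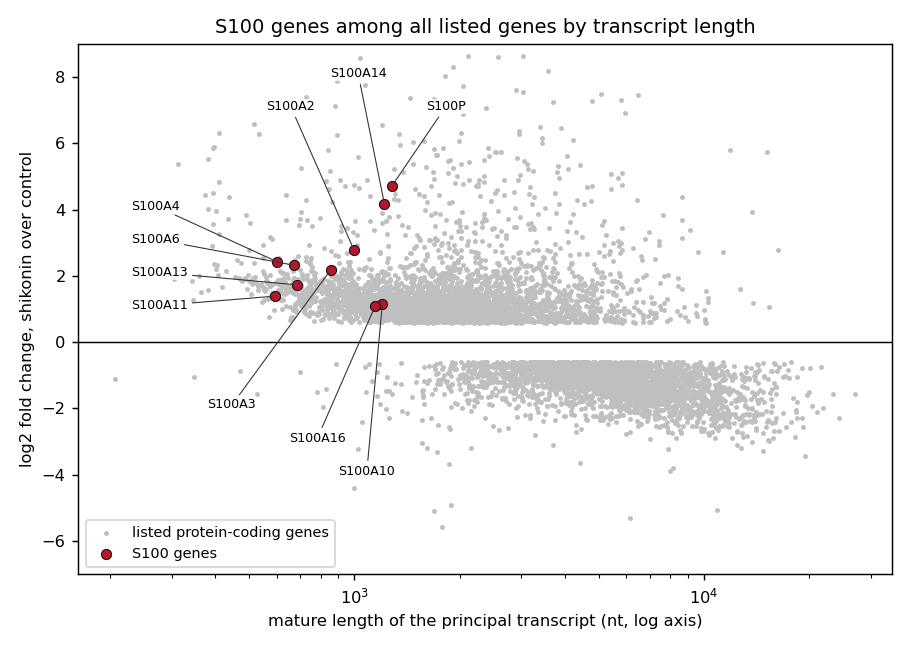
Log2 fold change, shikonin over control, from the authors' deposited table against the mature length of the principal transcript (log axis) for listed protein-coding genes with a symbol (grey) and the 10 S100 genes (red). 5 genes lie outside the drawn range of -7 to 9. The S100 genes sit among the short transcripts, where nearly all genes are higher; S100A10, S100A11 and S100A16 lie within the dense band and S100A2, S100A3, S100A4 and S100A6 towards its upper edge.

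Annexins, the membrane-binding partners of S100A10 and S100A11, were listed for 9 of 13 genes, and all 9 were higher, with a median log2 fold change of 1.01 from the values in the authors' deposited table. For background, 50.2% of all tested genes are listed and 25.5% are listed as higher. By the transcript with the longest coding sequence the 9 annexins had a median length of 2174 nt, in the fourth length decile, where 82.4% of listed genes were higher going by the authors' deposited table. ANXA1, the partner of S100A11, was 3.65-fold higher (3.11 to 4.28) with implied means of 14845 normalized counts in shikonin and 4066 in control, by the values in the authors' deposited table. ANXA2, the partner of S100A10, was 1.64-fold higher (1.40 to 1.92) with implied means of 45807 in shikonin and 27973 in control, going by the authors' deposited table. ANXA3 and ANXA6 were 2.82-fold (2.36 to 3.36) and 2.02-fold (1.69 to 2.41) higher, and the scarcer ANXA10 4.83-fold (2.76 to 8.46), from the values in the authors' deposited table. ANXA8L1, a near-identical copy of ANXA8 and so uncertain, was 2.17-fold higher (1.61 to 2.92) going by the authors' deposited table. When implied totals over listed genes were made equal between the groups, which lowers each log2 fold change by 0.394, 5 annexins stayed past 1.5-fold. ANXA2 was then at 0.32 on the log2 scale.

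Partners inside the cell were split. Of 25 genes in that list, 14 were listed, 6 higher and 8 lower, with a median log2 fold change of -0.90 going by the authors' deposited table. Over all tested genes 50.2% are listed, 25.5% as higher and 24.7% as lower, so these counts are near the background. CACYBP, the partner of S100A6, was 3.76-fold higher (3.21 to 4.39) with implied means of 7494 normalized counts in shikonin and 1995 in control, from the values in the authors' deposited table. IL1A, the interleukin 1 alpha gene whose product S100A13 helps to release, was 3.62-fold higher (2.88 to 4.55) by the values in the authors' deposited table. FGF1, the other cargo of S100A13, was named after its values were seen: it was 2.14-fold higher (1.22 to 3.76) with implied means of 72.0 in shikonin and 33.6 in control, going by the authors' deposited table. PADI3, the enzyme that modifies S100A3, was 10.7-fold higher (1.57 to 72.6) from the values in the authors' deposited table, on implied means of 9.41 in shikonin and 0.882 in control.

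AHNAK, a giant scaffold protein bound by the complex of S100A10 and annexin A2, was 9.39-fold lower (7.06 to 12.5) by the values in the authors' deposited table, with implied means of 4746 normalized counts in shikonin and 44553 in control. MYH9, the heavy chain of non-muscle myosin IIA that S100A4 binds, was 2.54-fold lower (2.07 to 3.11) going by the authors' deposited table, with implied means of 12510 in shikonin and 31732 in control. IQGAP1, a scaffold bound by S100P, and PPFIBP1, the liprin bound by S100A4, were 2.91-fold (2.29 to 3.71) and 2.52-fold (1.94 to 3.28) lower from the values in the authors' deposited table. MDM2, the ubiquitin ligase of p53, was 2.60-fold lower (2.09 to 3.24) by the values in the authors' deposited table. All 10 S100 genes were higher, so a lower partner moved opposite to its S100 gene and a higher one the same way. These pairings restate the direction of each partner and are not read as a result about the pairs. By the transcript with the longest coding sequence, the 8 lower partners had a median length of 7394 nt (2846 to 18787) and the 6 higher ones 2978 nt (2124 to 4062). Within its own length decile by that definition AHNAK stood at percentile 0.723 and MYH9 at 42.1. In the decile of AHNAK 4.62% of listed genes were higher, and in that of MYH9 and IQGAP1 6.36%. The part of length in these directions was not tested.

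**Figure D5:**
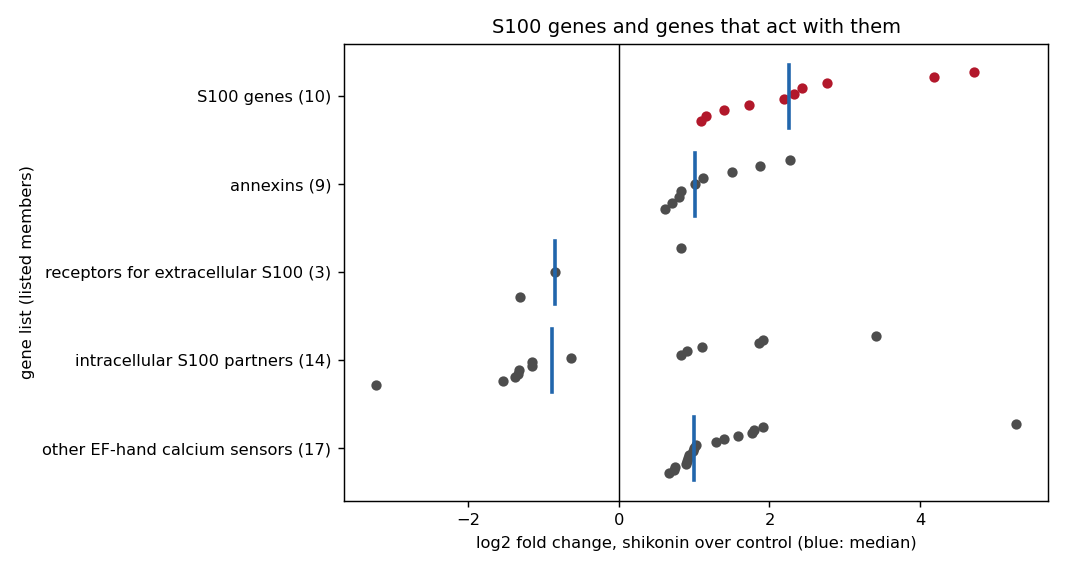
Log2 fold change, shikonin over control, from the authors' deposited table for the 10 S100 genes and for the listed members of 4 lists of genes that act with them or share their calcium-binding motif. Points are genes, spread vertically for visibility, and blue bars are medians. S100 genes, annexins and other EF-hand genes lie wholly to the right of 0, and intracellular partners fall on both sides.

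Receptors of secreted S100 proteins gave 3 listed genes of 7, named after their values were seen. Of all tested genes 50.2% are listed, 25.5% as higher and 24.7% as lower. TLR4 and ALCAM were 2.49-fold (1.94 to 3.20) and 1.80-fold (1.49 to 2.18) lower, and BSG, which encodes basigin, 1.77-fold higher (1.46 to 2.14), going by the authors' deposited table. AGER, the RAGE gene, was not listed. From the plasminogen genes, 3 are given here, also named after their values were seen. The plasminogen receptor genes PLGRKT and ENO1 were 2.65-fold (1.82 to 3.87) and 2.12-fold (1.79 to 2.50) higher from the values in the authors' deposited table. The inhibitor gene SERPINB2 was 2.00-fold higher (1.28 to 3.11) by the values in the authors' deposited table. PLAU and PLAUR, the urokinase gene and that of its receptor, were not listed.

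Other EF-hand calcium sensors were listed for 17 of 40 genes, all 17 higher, with a median log2 fold change of 1.00 going by the authors' deposited table. Being listed in either direction was thus no more frequent in that list than over all tested genes (50.2%). Of all tested genes, 25.5% are listed as higher and 24.7% as lower. The 17 genes had a median length of 1598 nt (770 to 2821) by the transcript with the longest coding sequence, in the third length decile, where 91.2% of listed genes were higher by the values in the authors' deposited table. CALM2, a calmodulin gene, was 1.90-fold higher (1.55 to 2.32) from the values in the authors' deposited table. Myosin light chain genes were among the higher ones: MYL12A by 3.45-fold (2.85 to 4.17), MYL6 by 3.41-fold (2.61 to 4.45) and MYL9 by 2.65-fold (2.15 to 3.25) by the values in the authors' deposited table. The heavy chain gene MYH9 was lower, as given above. CETN3, a centrin gene, was 2.99-fold higher (2.16 to 4.13) and CIB1, which encodes a calcium and integrin binding protein, 2.45-fold higher (1.96 to 3.07) going by the authors' deposited table. CAPNS1, the gene of the small calpain subunit, was 2.04-fold higher (1.74 to 2.39) from the values in the authors' deposited table. VSNL1 and CIB2 rose on few reads, with implied means of 37.8 and 6.10 in shikonin and 9.97 and 0.157 in control. With equal implied totals 10 of the 17 stayed past 1.5-fold.

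Markers of cell types were taken as a check of the line and of the epithelial S100 genes. The background for all marker lists is 50.2% of tested genes listed, 25.5% as higher and 24.7% as lower. Of 7 mesenchymal markers, 4 were listed, 2 higher and 2 lower. VIM, which encodes the mesenchymal filament vimentin, had an implied mean of 81887 normalized counts in shikonin and 46972 in control, and was 1.74-fold higher (1.47 to 2.07) from the values in the authors' deposited table. SPARC, which encodes a matrix protein, was 4.75-fold higher (1.91 to 11.8) on implied means of 34.9 in shikonin and 7.34 in control, going by the authors' deposited table. ZEB1 and FN1 were 1.69-fold (1.26 to 2.25) and 1.80-fold (1.34 to 2.43) lower by the values in the authors' deposited table. CDH2, AXL and CD44 were not listed. Of 10 luminal epithelial markers, 6 were listed, 5 higher and 1 lower, with an implied sum of 61049 in shikonin and 24429 in control. KRT18 and KRT19 were 3.18-fold (2.61 to 3.87) and 2.80-fold (2.28 to 3.44) higher, and FOXA1 23.4-fold (9.71 to 56.2) on implied means of 67.9 in shikonin and 2.91 in control, going by the authors' deposited table. KRT8 and EPCAM were 2.38-fold (1.95 to 2.90) and 2.15-fold (1.52 to 3.05) higher, and ERBB2 was 1.99-fold lower (1.67 to 2.38), from the values in the authors' deposited table. ESR1, PGR, CDH1 and GATA3 were not listed. All 10 S100 genes were higher, so each higher marker, luminal or not, moved with all of them and each lower one against them. Such a match is not particular to S100A2, S100A14 and S100P. The part of these markers in the rise of the S100 genes was not tested. By the transcript with the longest coding sequence the 5 higher luminal markers had a median length of 1562 nt (1390 to 2862), and ERBB2 4545 nt. Of listed genes, 91.2% were higher in the third length decile, which holds that median, and 18.2% in the seventh, which holds ERBB2. The 2 higher mesenchymal markers measured 2135 and 3701 nt and the 2 lower ones 5990 and 8905 nt. The part of length in these directions was not tested. The listed markers of immune (CD14 and CD68), fibroblast (PDGFRB), endothelial (PECAM1) and keratinocyte (KRT10) cells were higher by 1.58- to 4.47-fold from the values in the authors' deposited table. PTPRC, CD3E, COL1A1, COL3A1, DCN, LUM, VWF, CDH5, KRT1, KRT14, IVL and the loricrin gene were not listed. All libraries come from 1 line, so these genes are not read as signs of other cell types. In bulk RNA a change in the share of the line's cells that carry a transcript and a change of RNA per cell cannot be told apart.

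The S100 counts were also taken at other thresholds, with the share of all tested genes as background only, since the members come from the same comparison. Every member is listed by choice, so the counts are not read against those shares. Of the 3630 listed higher genes, 2341 were at least 2-fold higher and 2926 were below an adjusted p of 0.001 by DESeq2. A mean of 100 normalized counts was reached by 2814 of them. The interval lay beyond 2-fold for 1201, and 2391 stayed past 1.5-fold with equal implied totals. All 10 were at least 2-fold higher, against 16.4% of the genes tested, and all 10 were below an adjusted p of 0.001, against 20.5%, by the authors' DESeq2 values. A mean of 100 normalized counts was reached by 8, all but S100A14 and S100P, against 19.7% of the genes tested that were listed as higher with such a mean. The interval lay wholly beyond 2-fold for 8, all but S100A10 and S100A16, against 8.43% of the genes tested. With equal implied totals all 10 stayed more than 1.5-fold higher, against 16.8% of the genes tested, with S100A16 nearest to the bound at 1.62-fold and S100A10 at 1.70-fold.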

How the data were processed

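MDA-MB-231 cells were lysed in Trizol, and libraries of their total RNA were prepared with NEBNext Ultra reagents, per the labels' protocols. In the submitters' processing notes stand hg38, fastp, DESeq2 and HISAT2 2.0.5; for counter, annotation and strand the sources used here give nothing. Per the file headers, the authors deposited for each gene the mean over all libraries of counts scaled by size factors, a signal. The log2 fold change, its standard error, the Wald score (fold change over error), the p-value and the adjusted p-value are the authors' deposited values, per the file headers. Values above 0 bear the authors' mark "up", taken to mean higher in shikonin. The table was checked to hold only genes with a fold above 1.5 and adjusted p below 0.05.

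From these, implied means, 95% intervals, length deciles and counts were computed in Python 3.11.15 (pandas 2.3.3, NumPy 2.4.6). Only the formula for implied means and the recovery of the number of genes tested were checked on simulated data. Of the listed genes, 7142 matched GENCODE 29 (GRCh38) by Ensembl identifier; hg38 is the same build. The length of a gene is that of its longest APPRIS principal transcript, or, as an alternative, of the transcript with the longest coding sequence. The number tested was recovered from p, rank and adjusted p (estimates 14132 to 14323). Planned fits of counts per sample could not be made. The members and lists were chosen with earlier results of these data known. Named were all members and, from each list, up to 8 listed genes with an absolute log2 fold change of at least 1, plus its best-known genes. RefSeq (GRCh38.p14) gave promoters. Some genes of these lists are not reported here. Depth per library is unknown.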

Additional observations from a re-analysis of the deposited data

How the results depend on the processing

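The count of S100 genes called higher, 10, stayed at 10 at an adjusted p below 0.001, at a fold of at least 2 and with equal implied totals, and was 8 with intervals beyond 2-fold and 8 at a mean of at least 100 normalized counts. Requiring an implied control mean of at least 10, an alternative chosen after seeing the data, also left 8, without S100A14 and S100P. All 10 log2 fold changes kept their direction with equal implied totals, at 0.70 to 4.32. With the transcript of the longest coding sequence, 8 members again lay above the median of their length decile. Over the other lists together 37 genes were higher and 11 lower; at least 2-fold the higher count was 20, with intervals beyond 2-fold the counts were 11 and 4, and with equal implied totals the higher count was 23. Fewer genes can pass a stricter bound, by construction, and the shift to equal totals lowers every value. No paired analysis was possible because the table holds no columns per sample; for the same reason the fits without each replicate, with edgeR or with other size factors or low-count filters were not run. Unlisted genes have no value here, so counts and percentiles describe listed genes, and precision rests on the listed standard errors.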
